A study of Mus musculus with 3 samples.

Results

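The clustered histone genes are the replication-dependent genes of the linker histone H1 and the core histones H2A, H2B, H3 and H4. They were taken as the protein-coding genes whose symbol starts with Hist, a cluster number from 1 to 4 and the letter h, which gave 67 of the 55536 annotated genes. Another 3 genes had such a symbol but are annotated as pseudogenes and were left out. Of the 67 genes, 54 lie in the Hist1 cluster on chromosome 13, 10 in the Hist2 cluster on chromosome 3, 2 in the Hist3 cluster on chromosome 11, and 1, Hist4h4, on chromosome 6. RNA came from bone-marrow-derived macrophages of the C57BL/6J mouse strain, cells grown from marrow into macrophages in culture. All cells had received 100 ng/ml Lipid A for 12 hours, had been washed and kept without it for 12 hours, and had then received 100 ng/ml Lipid A again for 40 minutes. Lipid A, the membrane anchor of lipopolysaccharide, is sensed by Tlr4. RNA of the cytosolic fraction, freed of ribosomal RNA, gave 3 libraries, replicates 1, 2 and 3, which form 1 group. They carry the same donor label and the labels give no sex or age, so it is not known here whether separate animals were used, and every spread below is the spread between these libraries. Untreated cells, cells stimulated once and nuclear RNA were not analysed here. All values are therefore levels, and with 3 libraries in 1 group no test was made.

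Replication-dependent histone genes are transcribed in S phase, when new DNA is packed into nucleosomes. Their mRNAs are the only animal mRNAs known to end in a conserved stem-loop in place of a poly(A) tail. The stem-loop is bound by Slbp, cleavage behind it is guided by the U7 RNA, and the mRNAs are degraded when replication stops. Some of these genes are also known to give polyadenylated transcripts in cells that have left the cycle. Macrophages grown from marrow divide in response to Csf1, and bacterial lipopolysaccharide is known to halt that growth. Because total RNA was sequenced, tail-less mRNAs could be counted.

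The stem-loop is shown for 6 of the genes described below and for H2afx. It is the mark that sets these mRNAs apart, and the annotated transcripts differ in whether they hold it. Capitals mark the 16 bases of the stem-loop, and up to 5 bases on each side are in lower case, read 5′ to 3′ on the transcript strand of build mm10.
Hist1h1c (H1; chr13:23739507-23739532, plus strand): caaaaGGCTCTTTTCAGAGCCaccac
Hist2h2aa2 (H2A; chr3:96239779-96239804, minus strand): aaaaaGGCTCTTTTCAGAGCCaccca
Hist1h2bb (H2B; chr13:23747198-23747223, plus strand): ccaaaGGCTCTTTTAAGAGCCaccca
Hist1h3a (H3; chr13:23761885-23761910, minus strand): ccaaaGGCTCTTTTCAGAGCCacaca
Hist1h4c (H4; chr13:23698084-23698109, minus strand): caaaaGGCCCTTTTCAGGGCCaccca
Hist1h4b (H4; chr13:23757361-23757386, plus strand): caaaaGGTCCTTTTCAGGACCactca
H2afx (chr9:44335235-44335260, plus strand): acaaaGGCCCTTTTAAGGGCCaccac
The first annotated transcript of 46 of the 67 genes held such a stem-loop behind the stop codon, at a median of 31 bases after it and between 21 and 58 bases. These genes had 8 different stem-loops, of which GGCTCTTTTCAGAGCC was the commonest with 26 genes. The 12 H4 genes with a stem-loop had none of the sequences found in the other families. Over all annotated protein-coding transcripts, searched on the transcript strand only, the stem-loop pattern was in 66.7% of 72 transcripts of clustered histone genes and in 0.0289% of 58725 transcripts of other genes. The 17 other transcripts belong to 9 genes, among them H2afx and Trim17, whose annotated transcripts share part of the sequence of Hist3h2a.

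The annotated transcripts fall into classes by where they end. In 22 genes the only transcript ended 3 to 74 bases behind the stem-loop, within the limit of 100 bases set for this class. In 21 genes it ran past the stem-loop by 108 to 4884 bases. In 17 genes the annotated transcript stopped at or shortly behind the stop codon, by at most 48 bases, and held no stem-loop. They are classed below as stopping before the stem-loop, but whether one lies behind the annotated end was not looked up. Hist1h2bc, which is annotated with a second exon, and Hist2h2be ran on further behind the stop codon without a stem-loop. Another 5 genes had several annotated transcripts. A poly(A) signal, AATAAA or ATTAAA in the last 50 bases, was present in 1 of the 22 genes that ended at the stem-loop and in 10 of the 21 that ran past it. The same signal was in 50.2% of the protein-coding transcripts of other genes.

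Expected counts on annotated genes summed to between 38197192 and 46327891 per library. At these depths a count of 0 allows up to 3 counts, or 0.0648 to 0.0785 CPM, which covers counting error only. The clustered histone genes took 14501 expected counts in replicate 1, 18208 in replicate 2 and 15122 in replicate 3. All 8 macrophage markers had TPM of 1 or more in every library, with a sum of 4071 to 5638 TPM. No marker of progenitors, erythroid cells, B cells, T cells, neutrophils or stromal cells did, and each of those lists summed to at most 1.87 TPM. TPM is a share of all RNA in a table, and nuclear protein-coding genes held only 27.7% to 33.3% of it, so TPM of mRNAs is low throughout.

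Clustered histone RNA was found in these libraries of the cytosolic fraction. They also held Malat1, a nuclear RNA, at 1445, 485 and 1726 TPM, so RNA found in them need not all be cytosolic. How far nuclear RNA adds to the histone values was not tested. A gene was called detected at 1 TPM or more in all 3 libraries, and 44 of the 67 genes were, which is 65.7% against 41.4% of 22028 annotated protein-coding genes. Many of these genes are near copies whose reads are divided by a model, so the 44 are not 44 separate observations. Another 8 genes lay on both sides of 1 TPM, and 15 (22.4%) were below it in every library, as were 56.3% of protein-coding genes. With TPM rescaled to sum over nuclear protein-coding genes only, 57 of the 67 genes (85.1%) reached 1 in all libraries, against 46.9%. At least 10 expected counts in every library were found for 54 genes (80.6%), against 51.1%. Only Hist1h2aa and Hist1h2ao had no count in any library (2.99%), against 32.0%. Over all 67 genes the median of the mean TPM was 2.05, against 0.180 over annotated protein-coding genes. Among detected genes the order was the other way, with a median of 4.77 TPM for the 44 clustered histone genes and 8.61 TPM for 9118 protein-coding genes. The sum over the 67 genes was 393 TPM in replicate 1, 381 TPM in replicate 2 and 397 TPM in replicate 3. On this scale, a share of all RNA, the libraries lay close together. As a share of nuclear protein-coding TPM the sum was 0.118%, 0.136% and 0.144% in replicates 1, 2 and 3 (mean 0.132% ± 0.0132, SD, n = 3). The same share was 0.0447% ± 0.00131 of expected counts, which do not divide by length. In bulk RNA the number of S phase cells and the amount of histone mRNA per cell cannot be told apart. Without untreated cells it is not known whether this RNA rose or fell.

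**Figure D1:**
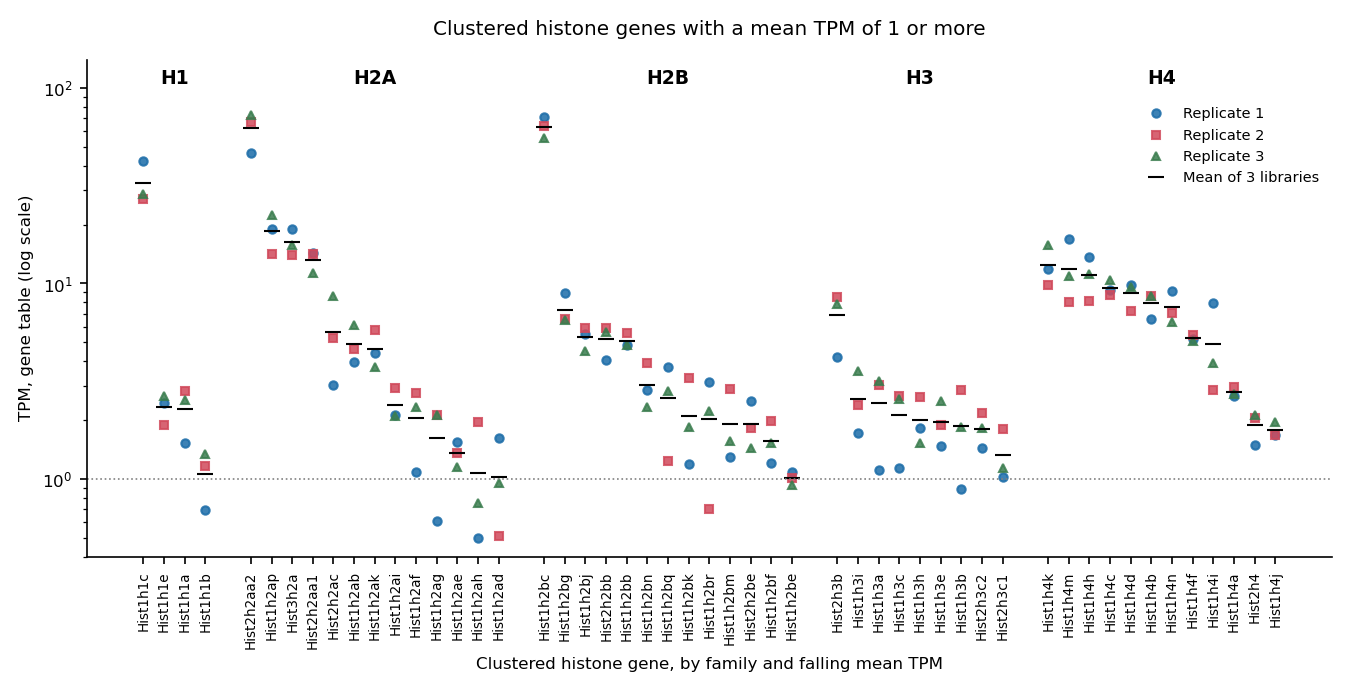
TPM in the gene tables (log scale) of the 51 clustered histone genes with a mean of 1 TPM or more, by family and falling mean. Points are the 3 libraries, black bars their means, and the dotted line marks 1 TPM; Hist1h1c, Hist2h2aa2 and Hist1h2bc have means above 20 TPM, while the means of the H4 genes drawn lie between 1 and 13 TPM.

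A small number of genes carried most of this RNA. Hist1h2bc, Hist2h2aa2 and Hist1h1c together held 40.6% ± 1.02 of the summed TPM (SD, n = 3), and the first 10 genes 64.3% ± 2.80. Only 9 genes had a mean of 10 TPM or more, 42 lay between 1 and 10 TPM, and 16 were under 1 TPM. Ranked by mean TPM, 4 of the 66 pairs of neighbouring genes kept their order in all 3 libraries. Among the first 12 genes this held for 2 of 11 pairs, Hist2h2aa2 above Hist1h1c and Hist1h1c above Hist1h2ap.

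H2A, which pairs with H2B in the nucleosome, had the largest share of TPM, and 10 of its 18 genes were detected. Hist2h2aa2 (chromosome 3, 96239749 to 96240276) reached 46.6 TPM in replicate 1, 67.1 TPM in replicate 2 and 72.7 TPM in replicate 3. The values of other genes follow in the same order of replicates. With its neighbour Hist2h2aa1 (chromosome 3, 96245497 to 96246082), at 14.3, 14.1 and 11.3 TPM, it shares the whole coding sequence. Replicate 1 was lowest for the first gene and highest for the second, and their sum of 60.9, 81.2 and 84.0 TPM is firmer than the split. Hist1h2ap (chromosome 13, 21833026 to 21833507) had 18.9, 14.1 and 22.4 TPM. Hist1h2ao, with the same coding sequence, was listed at 0 counts in all libraries, and 93.4% of the 31-base words of Hist1h2ap also occur in it, so this division too is the quantifier's. Hist3h2a (chromosome 11, 58954685 to 58956830) had 19.1, 13.9 and 15.7 TPM from 1995 to 2158 counts. It lies wholly within Trim17 on the same strand, to which 0.137 TPM were assigned on average. Hist2h2ac varied most of all detected genes, with 3.01, 5.26 and 8.62 TPM and an SD of 0.63 on the log2(TPM + 1) scale.

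The remaining H2A genes were low. Hist1h2ak had 4.64 ± 1.02 TPM, Hist1h2ab 4.91 ± 1.12 TPM and Hist1h2ai 2.38 ± 0.459 TPM (SD, n = 3). Hist1h2ae had the lowest mean of the detected H2A genes, 1.35 ± 0.20 TPM, and Hist1h2af, at 1.09, 2.74 and 2.33 TPM, the lowest single library. Hist1h2ag, Hist1h2ah and Hist1h2ad lay on both sides of 1 TPM. Below 1 TPM in every library were Hist1h2ac at 0.543, Hist2h2ab at 0.410, Hist1h2an at 0.323, Hist1h2ao and Hist1h2aa. Hist1h2aa, which encodes an H2A of the testis, had no count in any library.

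H2B was led by a single gene. Hist1h2bc (chromosome 13, 23684199 to 23692908) was at 71.2, 64.0 and 55.2 TPM, the highest mean of the 67 genes at 63.5 ± 8.0 TPM (SD, n = 3). It rested on 3681, 4819.7 and 3406 expected counts, or 24.8% ± 2.04 of all counts on clustered histone genes. The next H2B gene, Hist1h2bg, had 7.35 ± 1.39 TPM, less in each library than Hist1h2bc. Hist1h2bj, Hist2h2bb and Hist1h2bb followed at 5.33 ± 0.738, 5.21 ± 1.01 and 5.097 ± 0.436 TPM. These 3 genes did not differ beyond their spread. Hist1h2bn had 3.03 TPM, and Hist1h2bq, Hist1h2bk, Hist1h2bm, Hist2h2be and Hist1h2bf had means of 1.57 to 2.59 TPM. Hist1h2br (3.15, 0.700 and 2.23 TPM) and Hist1h2be (1.09, 1.01 and 0.930 TPM) lay on both sides of the threshold. Hist1h2bl, Hist3h2ba, Hist1h2bh, Hist1h2bp and Hist1h2ba stayed below 1 TPM. Hist1h2ba, which encodes an H2B of the testis, had 1.03 counts in replicate 2 and none in the others.

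H3 was the family with the least RNA, although 8 of its 12 genes were detected. Hist2h3b (chromosome 3, 96268654 to 96269141) led with 4.18, 8.57 and 7.84 TPM. Hist1h3i had 1.71, 2.39 and 3.58 TPM, and Hist1h3a (chromosome 13, 23761853 to 23762386) 1.11, 3.04 and 3.16 TPM. Replicate 1 was the lowest library for each of these genes. The same held for Hist1h3c with 1.14, 2.67 and 2.56 TPM and for Hist1h3b, which missed the threshold with 0.890, 2.84 and 1.85 TPM. Hist1h3h had 1.83, 2.62 and 1.53 TPM, Hist1h3e 1.95 ± 0.509 TPM and Hist2h3c2 1.81 ± 0.365 TPM (SD, n = 3). Hist2h3c1, at 1.02, 1.81 and 1.14 TPM, was the gene closest above the threshold. Hist1h3f reached 1.00 TPM in replicate 3 only, and Hist1h3d and Hist1h3g stayed below 1 TPM.

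H4 RNA was spread over many genes. Of 13 genes 12 were detected, with a median of 7.55 TPM over all 13, against 1.67 to 1.97 TPM in the other families. Hist1h4k (chromosome 13, 21750194 to 21750505) had 11.8, 9.86 and 15.7 TPM, Hist1h4m 16.9, 8.03 and 10.9 TPM, and Hist1h4h 13.7, 8.18 and 11.2 TPM. Replicate 2 was the lowest library for all 3 of these genes. Hist1h4c had 9.43 ± 0.864 TPM, Hist1h4d 8.89 ± 1.46 TPM and Hist1h4b 7.95 ± 1.2 TPM (SD, n = 3). Hist1h4n had 7.55 ± 1.46 TPM and Hist1h4f 5.24 ± 0.178 TPM, the steadiest of all detected genes. Hist1h4i varied most in this family, with 7.96, 2.84 and 3.90 TPM, and replicate 1 was the highest. Hist1h4a, Hist2h4 and Hist1h4j had means of 1.77 to 2.78 TPM. Hist4h4, the only gene of its cluster, was at 0.190, 0.210 and 0.220 TPM from 27 to 45 counts.

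The linker histone H1, which binds the DNA between nucleosomes, was represented by Hist1h1c (chromosome 13, 23738808 to 23740367). It was at 42.4, 26.9 and 28.9 TPM, highest in replicate 1, from 3134, 2899 and 2554 expected counts. Hist1h1e had 2.33 ± 0.406 TPM, Hist1h1a 2.28 ± 0.677 TPM and Hist1h1b 1.06 ± 0.336 TPM (SD, n = 3). Hist1h1c exceeded each of them in all 3 libraries. Hist1h1d was at 0.273 TPM although it had 119 to 143 counts, since its annotated transcript is 7425 bases long. Hist1h1t, the H1 of the testis, had 1 to 2 counts per library.

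The ranking of the families depended on the unit. In TPM, H2A held 34.9% ± 4.03 of the sum, H2B 26.8% ± 2.93, H4 22.0% ± 2.72, H1 9.91% ± 1.89 and H3 6.42% ± 1.95 (SD, n = 3). In expected counts H2B came first with 32.2% ± 2.66, then H2A with 28.4% ± 2.40, H1 with 21.4% ± 2.94, H4 with 13.1% ± 1.05 and H3 with 4.92% ± 1.61. H3 was last on both scales in every library. TPM divides by the effective length of the annotated transcript, and the annotated lengths of these genes run from 312 bases for Hist1h4k to 7425 bases for Hist1h1d. Hist1h4k gained 12.5 TPM from 66.5, 81.4 and 99.15 counts over an effective length of 100.1 bases, while Hist1h4d gained 8.89 TPM from 499, 533 and 582 counts over 917 bases. Where the mRNA present ends elsewhere than the annotated transcript, the division uses a length that is not its own. By annotated end, the 22 genes that end at the stem-loop held 44.5% ± 3.82 of TPM and 20.3% ± 3.39 of counts. The 21 genes that run past it held 24.8% ± 3.69 of TPM and 46.6% ± 4.19 of counts.

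**Figure D2:**
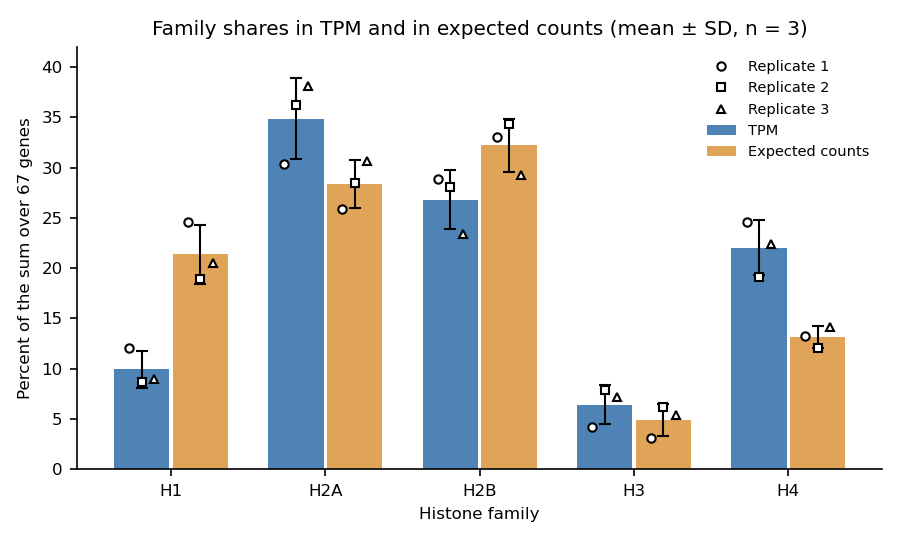
Percent of the sum over 67 clustered histone genes held by each family, in TPM (blue) and in expected counts (orange); bars are means, error bars SDs and symbols the 3 libraries. H1 has a larger share in counts (21.4%) than in TPM (9.91%), and H4 a smaller one (13.1% against 22.0%).

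The genes are near copies, which limits how far single genes can be told apart. Coding sequences of equal length were identical at a median of 97.2% of positions between H2B genes, 97.2% between H3 genes, 96.4% between H2A genes and 93.9% between H4 genes. Below are the first 60 coding bases of the 5 H2B genes with the highest mean TPM, with capitals at each base that differs from Hist1h2bc.
Hist1h2bc (chr13:23684232-23684291, plus strand): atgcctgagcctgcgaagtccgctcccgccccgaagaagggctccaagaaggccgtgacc
Hist1h2bg (chr13:23571433-23571492, plus strand): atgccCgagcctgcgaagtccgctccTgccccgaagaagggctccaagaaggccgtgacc
Hist1h2bj (chr13:22043230-22043289, plus strand): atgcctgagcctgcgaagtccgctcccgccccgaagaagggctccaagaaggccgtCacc
Hist2h2bb (chr3:96269752-96269811, plus strand): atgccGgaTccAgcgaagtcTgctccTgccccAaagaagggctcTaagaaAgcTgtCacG
Hist1h2bb (chr13:23746795-23746854, plus strand): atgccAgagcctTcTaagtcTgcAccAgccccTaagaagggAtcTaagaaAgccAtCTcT
Over all 381 coding bases Hist1h2bj differed from Hist1h2bc at 4 bases and Hist1h2bg at 5, with an unbroken identical run of 305 bases in Hist1h2bg. Hist2h2bb differed at 42 bases. Reads inside such a run can be placed only by a model, not by their sequence.

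To show which genes this touches, the 31-base words of each annotated transcript were looked up in all annotated transcripts, taking both strands as one. At least 50% of the words were found in no other gene for 27 of the 67 genes, and these held 43.8% ± 5.52 of TPM and 74.0% ± 4.47 of counts (SD, n = 3). Hist1h2bc had 65.5% of such words, Hist1h1c 88.6%, Hist3h2a 67.9% and Hist1h4d 85.3%. Another 14 genes had under 10% of such words and held 33.8% ± 3.55 of TPM. Of these 14 genes 12 were detected, against 17 of the 26 genes with 10% to 50% of such words and 15 of the 27 with at least 50%. For 5 genes, Hist2h2aa1, Hist2h2aa2, Hist2h2bb, Hist2h3b and Hist2h3c1, no word was particular to the gene. All 5 lie in the Hist2 cluster, each wholly covered by a non-coding gene. On the opposite strand Gm20632 covers Hist2h2aa2, Gm20633 covers Hist2h2aa1, and Gm20628 covers Hist2h3b and Hist2h2bb. On the same strand Gm20634 covers Hist2h3c1 and part of Hist2h2aa1. In the Hist1 cluster, Hist1h4b is covered by the antisense gene 4930558J22Rik, and Hist1h1e shares 496 bases with Hist1h2be on the same strand. The strand setting of the counting is not given in the sources used here, so sense and antisense reads cannot be told apart. Those 4 Gm genes had means of 0.483 to 3.05 TPM, and with them added the histone sum was 0.134% of nuclear protein-coding TPM, against 0.132% without them. Leaving out Hist2h2aa1 and Hist2h2aa2 gave 0.107%. The 4 Gm genes are 2427 to 3215 bases long, the histone genes they cover 381 to 1825 bases, and TPM divides by length. The share with the Gm genes added therefore does not show what their reads would add if counted on the histone genes.

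The read-based transcript tables, for which no alignment file is named, gave values that were slightly lower for most of these genes. Both quantifications were scaled to nuclear protein-coding genes and compared as log2(TPM + 1). The median absolute difference was 0.15 over the 44 detected genes and 0.08 over 9106 detected nuclear protein-coding genes. Of the 44 genes 30 were lower in the read-based tables, with a median difference of -0.09, against 3915 lower and 5191 higher of the 9106 genes, with a median of 0.02. Among the 44 genes only Hist2h3c1 differed by over 1, and it was lower in the read-based tables by 2.08 ± 0.25 (SD, n = 3). All of its words are contained in Gm20634, which had 689, 867 and 595 read-based counts, against 552, 665 and 443 expected counts in the gene tables. Among clustered histone genes with a mean of 1 TPM or more, detected or not, the next lower in the read-based tables were Hist1h2bq, Hist2h2aa2, Hist1h2br and Hist1h4b, by 0.27 to 0.44, while Hist1h2ai, Hist1h2ak, Hist1h4k, Hist1h2ah and Hist1h2bn were higher by 0.41 to 0.62. For the copies with the same coding sequence, the sum was 66.7 ± 12.9 TPM on the scale of the gene table for Hist2h2aa2 with Hist2h2aa1, against 75.4 ± 12.6 TPM there. In the same order the sums were 16.7 ± 4.0 and 19.5 ± 5.78 TPM for Hist1h4m with Hist1h4n, and 15.9 ± 3.16 and 18.5 ± 4.14 TPM for Hist1h2ap with Hist1h2ao. For Hist1h2bq with Hist1h2br they were 3.32 ± 1.6 and 4.62 ± 2.5 TPM. Hist2h3c1 with Hist2h3c2 differed most, at 1.84 ± 0.519 and 3.13 ± 0.775 TPM.

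**Figure D3:**
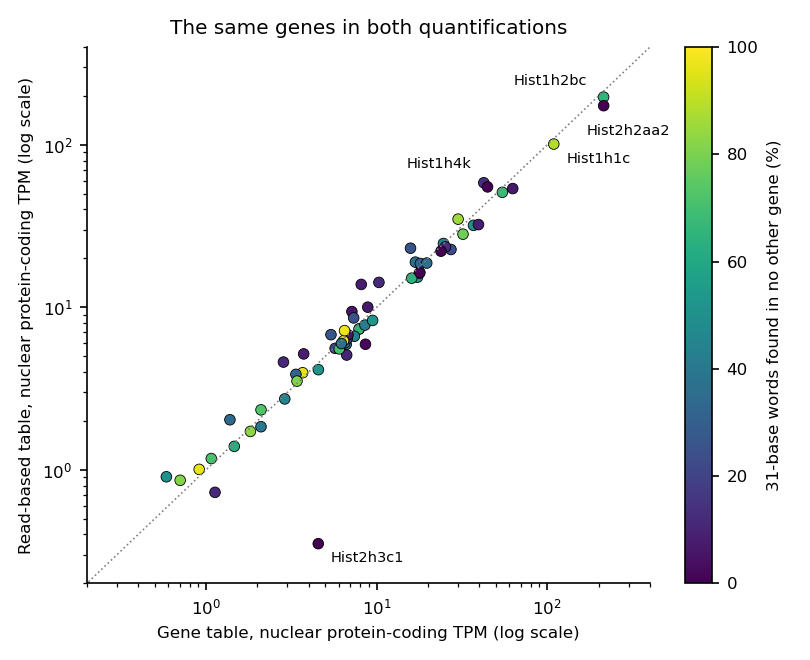
Mean TPM over nuclear protein-coding genes in the gene tables (x axis) and in the read-based tables (y axis), both log scales, for the 63 clustered histone genes above 0.2 on both; colour gives the percent of 31-base words found in no other gene. Points follow the dotted line of equality, except Hist2h3c1, which has no such word and lies far below it.

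Of the 5 genes with several annotated transcripts, 4 had a mean TPM of 1 or more. In the alignment-based tables Hist1h2be-202, a transcript of 2480 bases in 2 exons that runs past the stem-loop, took 89.9% ± 2.66 of the TPM of Hist1h2be (SD, n = 3), and the unspliced Hist1h2be-203 took 10.1% ± 2.66. Hist1h2bq-201, the unspliced coding transcript of 381 bases, took 77.5%, 56.9% and 77.7% of the TPM of Hist1h2bq in replicates 1, 2 and 3. Its spliced transcripts Hist1h2bq-202 and Hist1h2bq-203 took the rest, at 25.6% ± 14.5 and 3.67% ± 5.01. Hist1h2bq-201 and Hist1h2br-202, whose sequences are identical, were listed at the same TPM in every library, 2.89, 0.700 and 2.20. Hist1h2br-202 took 96.8% ± 4.43 of the TPM of Hist1h2br. For Hist2h3c1 all TPM went to Hist2h3c1-202. In counts the spliced Hist1h2bq-202 had 27.8, 42.3 and 42.7 against 26.5, 9.37 and 23.0 for the unspliced Hist1h2bq-201.

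Clustered histone genes varied more between the libraries than other genes did. The median SD of log2(TPM + 1) was 0.26 over the 44 detected genes and 0.16 over 9118 detected protein-coding genes. The common coefficient of variation in edgeR was 0.281 over the 54 genes kept by its filter and 0.189 over 12752 genes. The sets were not matched for level, with medians of 4.77 and 8.61 TPM among detected genes. The posterior standard deviation of the count had a median of 13.9% of the count in the 14 genes with under 10% of words of their own. In the 27 genes with at least 50% it was 0.33%. The part of level and of divided reads in the spread was not tested. With a library left out, the median SD of the histone genes was 0.16 to 0.26, lowest without replicate 1, so that library decided much of it. Such values are not given here for other genes. The largest SDs belonged to Hist2h2ac, Hist1h4i, Hist1h2bq and Hist1h3a, at 0.55 to 0.63, and the smallest to Hist1h4f and Hist1h4a, at 0.04 and 0.06.

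The spread had a direction. For each library the log2 TPM of a gene was compared with its mean in the other 2 libraries and centred on the median of 9106 detected nuclear protein-coding genes, so that 50% of those genes lie below 0. In replicate 1, 32 of the 44 clustered histone genes lay below 0, with a median of -0.33, and in replicate 2, 32 lay above it, with a median of 0.24. Replicate 3 had 26 genes above 0 and a median of 0.10. H3 moved furthest, since all 8 detected H3 genes were below 0 in replicate 1, with a median of -0.89, and all 8 above it in replicate 2, with 0.75. The deviations of the 3 libraries are not independent, as each is set against the others.

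The deviations in replicates 1 and 2 differed by where the annotated transcript ends. Among the 27 detected genes whose transcript ends at the stem-loop or is classed as stopping before it, 24 were below 0 in replicate 1, with a median of -0.63. Among the 15 whose transcript runs past the stem-loop, or runs on without one, 7 were below 0, with a median of 0.01. In replicate 2, 23 of the 27 genes were above 0, with a median of 0.38, against 8 of the 15, with 0.02. In replicate 3 the classes lay close, with 16 of 27 above 0 (median 0.17) and 9 of 15 (median 0.04). The 2 detected genes with several annotated transcripts are in neither group. Hist2h3c1, whose transcripts both run past the stem-loop, was at -0.73 in replicate 1 and 0.88 in replicate 2. Hist1h2bq was at 0.76 and -1.26 in the same order. The difference between the groups was not tested, and end class is mixed with family. Many of these genes are near copies whose reads are divided by a model, so they are not independent of each other. Hist1h3a was at -1.71, Hist1h2af at -1.45, Hist1h3c at -1.43 and Hist2h2ac at -1.39 in replicate 1, while Hist1h4i, which runs past the stem-loop by 330 bases, was at 1.03 and Hist1h1c at 0.37. The exceptions among genes that end at the stem-loop were Hist1h4m, Hist1h4h and Hist1h4n, at 0.62, 0.29 and 0.22. Among genes that run past it, Hist1h3e, Hist2h4 and Hist2h3c2 were low in replicate 1, at -0.78, -0.72 and -0.70.

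**Figure D4:**
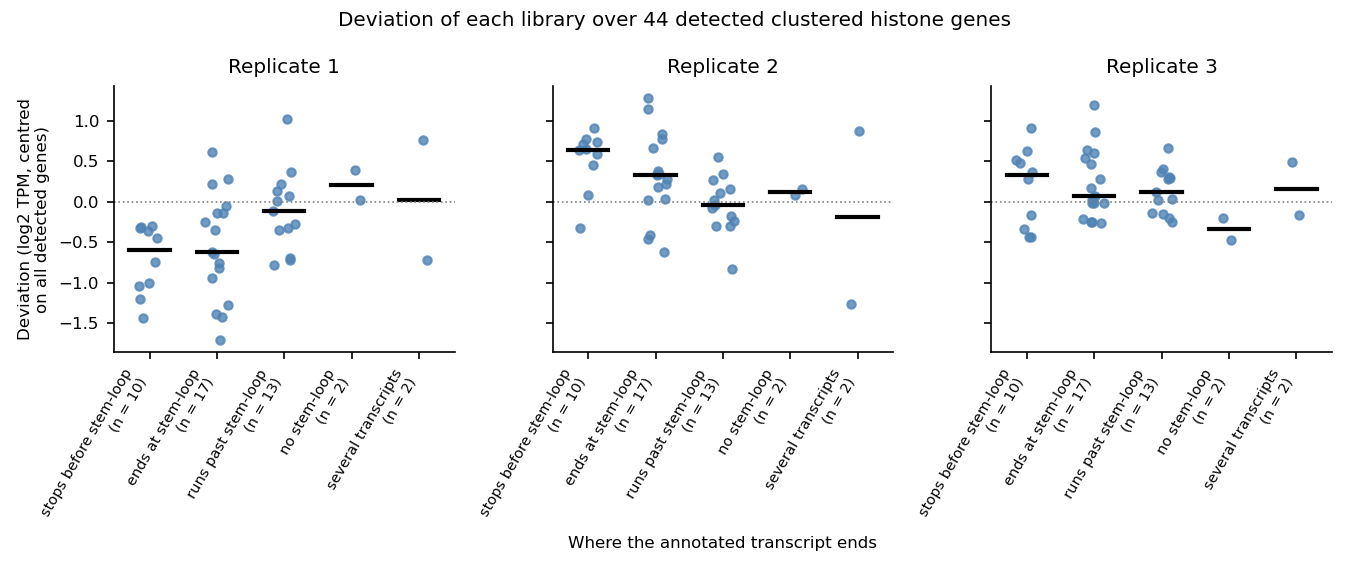
Deviation of each library on the log2 TPM scale for the 44 detected clustered histone genes, by where the annotated transcript ends; points are genes, black bars medians, and the dotted line the median of all detected nuclear protein-coding genes. In replicate 1 all 10 genes classed as stopping before the stem-loop and 14 of 17 that end at it lie below 0, against 6 above and 7 below for those that run past it.

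Other measures moved between the libraries as well. Among detected genes with annotated transcripts under 500 bases, the 19 clustered histone genes had median deviations of -0.36 in replicate 1 and 0.38 in replicate 2, against -0.04 and 0.10 for the 57 other genes. Of 16 detected S phase and proliferation genes 13 were below 0 in replicate 1, with a median of -0.13, 13 were below it in replicate 2, with -0.16, and 13 were above it in replicate 3, with 0.30. Malat1, a nuclear non-coding RNA, was at 1445, 485 and 1726 TPM, and Neat1, also nuclear, at 87.7, 16.1 and 88.3 TPM. Replicate 2 was lowest in both. The part of these in the histone deviations was not tested.

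Replication-independent histone genes are mostly expressed throughout the cycle from polyadenylated mRNAs and supply variant histones; H2afx, in the list, also carries the stem-loop shown above. Their levels show how the clustered genes stand within each family. The clustered genes summed to 393, 381 and 397 TPM, as given above, against 774, 657 and 602 TPM for 11 replication-independent genes. The log2 ratio of replication-independent to clustered TPM was 0.98, 0.79 and 0.60 (mean 0.79 ± 0.19, SD, n = 3). In expected counts it was 1.82 ± 0.10. The listed replication-independent genes belong to H1, H2A and H3 alone, and against the clustered genes of those families, 183, 201 and 215 TPM, the log2 ratio was 1.76 ± 0.30 in TPM and 2.70 ± 0.15 in counts.

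The excess lay in H3. Clustered H3 genes summed to 16.5, 30.1 and 28.4 TPM, against 633, 537 and 488 TPM for H3f3a, H3f3b and the centromeric Cenpa, a log2 ratio of replication-independent to clustered TPM of 4.51 ± 0.65 (SD, n = 3). H3f3a and H3f3b, which both encode H3.3, had 269 ± 34.9 and 281 ± 38.4 TPM. In counts it was 5.94 ± 0.56. In H2A the clustered genes were higher in TPM, with 136 ± 16.1 TPM against 97.1 ± 7.60 TPM for the variants, and the ratio was below 0 in each library (-0.48 ± 0.28). In expected counts the direction was the opposite in each library, with 3755, 5184 and 4641 counts on clustered H2A genes against 6231, 7908 and 6597 on the variants, a ratio of 0.62 ± 0.11. H2afz and H2afy, the genes of H2A.Z and macroH2A, led the variants at 40.4 ± 4.93 and 35.6 ± 5.0 TPM. In H1 the clustered genes summed to 38.7 ± 7.69 TPM against 28.1 ± 6.51 TPM for the variants, of which H1f0 gave 28.0 ± 6.52, and the ratio was -0.47 ± 0.17. In counts the H1 groups lay close, with 3572, 3447 and 3108 on clustered genes against 3566, 3887 and 2739 on the variants, and replicate 2 had more on the variants. H2afx, whose transcript runs on for 822 bases behind the stem-loop, had 3.23 ± 0.495 TPM.

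**Figure D5:**
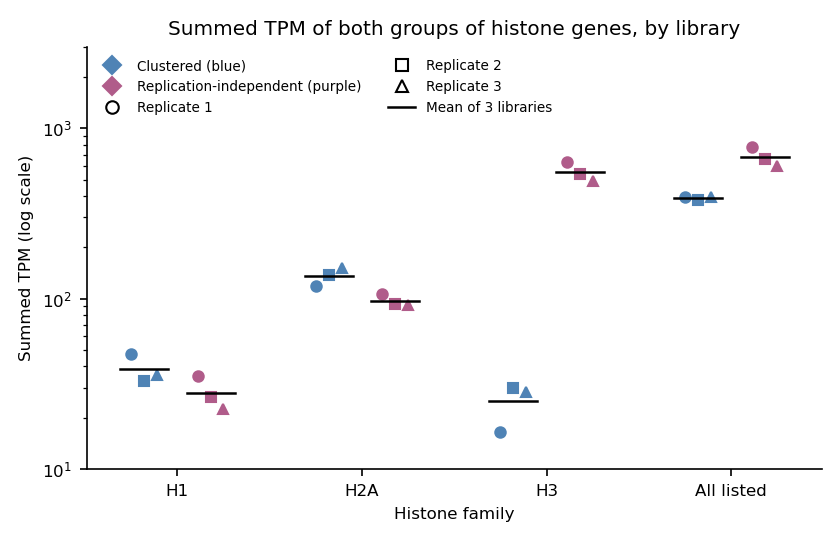
Summed TPM (log scale) of clustered (blue, left) and replication-independent (purple, right) histone genes in each library, by family and over all genes, where the clustered sum also holds H2B and H4; bars are means of 3 libraries. The groups do not overlap in H3, where clustered genes sum to at most 30.1 TPM and replication-independent genes to at least 488 TPM, and in H1 and H2A the clustered genes are higher in each library in TPM, which in expected counts is the opposite for H2A in all libraries and for H1 in replicate 2.

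RNA of most genes that make and remove histone mRNA was found. Of 22 listed genes for histone mRNA synthesis and 3′ end processing 18 were detected, against 41.4% of protein-coding genes, with a median of 3.05 on the log2(TPM + 1) scale. They include Slbp, which binds the stem-loop, at 8.14 ± 1.18 TPM, Npat, the coactivator of histone gene transcription, at 2.26 ± 0.191 TPM, and Lsm10, a subunit of the U7 particle, at 12.5 ± 0.747 TPM (SD, n = 3). The other U7 subunit Lsm11 was at 0.450 TPM and Zfp473 at 0.117 TPM, both below the threshold in every library. Rnu7, the U7 RNA itself, was listed at 0 counts, in libraries of fragments of 250 to 400 bases per the labels. Ccne1, the cyclin E1 that acts with Cdk2 on Npat, was at 1.95, 1.00 and 1.03 TPM.

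All 15 matched genes of histone mRNA translation and decay were detected, and the same 41.4% applies to this list and those that follow. Among them were Upf1 at 10.8 ± 0.790 TPM, the exonuclease gene Eri1 at 4.62 ± 0.693 TPM and Xrn1 at 9.54 ± 2.62 TPM, while Zcchc6 and Zcchc11 were not matched by symbol. Of 12 histone chaperone genes 10 were detected. The exceptions, Chaf1a at 0.837 TPM and Asf1b at 1.15 TPM, lay on both sides of 1 TPM. Both serve nucleosome assembly behind the replication fork, but Chaf1b and Asf1a were detected, at 2.72 ± 0.630 and 4.90 ± 1.30 TPM. Hira, which deposits H3.3, was at 5.68 ± 0.214 TPM and Daxx at 56.9 ± 14.8 TPM. Of 22 S phase and proliferation genes 16 were detected, led by Pcna, the sliding clamp of the replication fork, at 63.1 ± 4.4 TPM. Mcm6 had 10.2 ± 1.27 TPM and Mki67 5.94 ± 2.07 TPM. Ccna2, Ccnb1 and Cdc6 were below 1 TPM in every library, and Rrm2 and Tyms lay on both sides of it. On the log2(TPM + 1) scale the median was 1.57 over the 67 clustered histone genes, against 2.04 over this list and 0.23 over annotated protein-coding genes.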

How the data were processed

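Each of 3 libraries had a deposited gene table and 2 deposited transcript tables. The deposited gene tables hold expected counts, TPM and FPKM per gene with a posterior standard deviation of the count and bounds of TPM as further signal columns, and the layout is that of RSEM per the file headers. The alignment-based transcript tables, deposited in the same layout, also give isoform percent values; the read-based ones hold estimated counts and TPM in the layout of kallisto, per the file headers. Build mm10 and annotation M21 are named in text files the authors deposited alongside. Neither labels nor headers name the programs used for alignment and quantification, nor the strand setting. The 26345 rows that name no gene held 0.104% to 0.356% of expected counts and were left out.

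Members were found by symbol in the read-based tables and by gene type. Symbols, positions and transcript sequences are those of the GENCODE M21 reference. Means and SDs are over 3 libraries. With 3 libraries an exact sign-flip test cannot go below p = 0.25, so none was made. Common variation was estimated with edgeR 4.0.16 (R 4.3.3) after rounding expected counts and TMM scaling; DESeq2 1.42.0 size factors were an alternative. On simulated counts for 13971 genes with a coefficient of variation of 0.2 edgeR returned 0.201. Python 3.11.15 and pandas 2.3.3 did the rest.

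The members and lists were chosen with earlier results of these data known. Genes named with values were, in each family, the 5 highest and, alphabetically, the first 4 below 1 TPM throughout, those with the largest and smallest spread, those next to the threshold, those with several transcripts, those that differed most between quantifications, and the listed genes. The remaining clustered histone genes, Hist3h2bb-ps, Malat1, Neat1, Trim17, 4930558J22Rik and the genes named Gm were named after their values were seen.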

Additional observations from a re-analysis of the deposited data

Results flagged for a closer look

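Hist3h2bb-ps, a processed pseudogene in the Hist3 cluster that the rule on protein-coding genes leaves out, had 4, 19 and 10 expected counts in replicates 1, 2 and 3, a mean of 11.0. It stands here because each library is above the 3 counts that a count of 0 allows, in a gene that no comparison above uses. Its mean TPM was 0.623. The other pseudogenes with such a symbol, Hist1h2aj and Hist1h2al, had no count in any library.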

How the results depend on the processing

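Over the summary values of all 67 genes, 89 alternative values stayed within the limit for the same result, 17 moved past it and 1 reversed. Detection fell to 15 genes at a threshold of 5 TPM and to 24 in the read-based tables; it was 44 in the alignment-based tables, and 56 in the read-based tables once rescaled to nuclear protein-coding genes, an alternative chosen after seeing the data. Leaving out a library gave 45 to 47 genes. In expected counts the summed share was 0.0447%, H1 held 21.4%, H2A 28.4%, H2B 32.2% and H4 13.1%, and the log2 ratio of replication-independent to clustered genes was 1.82; by family, also chosen after seeing the data, it was 5.94 in H3, -0.0038 in H1 and 0.62 in H2A, where the direction reversed. Against clustered genes of H1, H2A and H3 only, added likewise, the ratio was 1.76 in TPM. Without Hist2h2aa1 and Hist2h2aa2, also chosen after seeing the data, the summed share was 0.107%. The spread was 0.39 with DESeq2 size factors and 0.16 to 0.26 without each library, lowest without replicate 1. In the read-based tables Hist1h2be-202 took 79.2%, Hist1h2br-202 84.6% and Hist2h3c1-202 99.9%, the last in 1 library only. The cause of these moves was not tested. Of 51 genes named by the rule, 16 moved in the read-based tables on the scale of the gene tables, and no gene moved without any 1 library. In the alignment-based tables no gene moved either. Their sums over the 67 genes were 392.71, 380.76 and 397.05 TPM, against 392.7, 380.78 and 397.06 TPM in the gene tables. These values nearly coincide, so the alignment-based tables are not a separate check of the gene tables. The same applies to their 44 detected genes and to their other values counted above as staying within the limit. No paired analysis was possible because there is 1 group. Limits are the 3 libraries of 1 donor label, near-identical copies, and annotated ends that set TPM.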
